A study of Mus musculus with 12 samples.

Results

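Autosomal gene expression was compared between male and female mouse spleens at 6-9 weeks of age, the age that the series describes as puberty. The comparison rests on 4 arrays of the 12 in the series, 2 from male and 2 from female spleens, named a and b in each sex as in their labels. The measured features were 12422 probe sets other than controls, of which 10469 belonged to 7975 autosomal genes with 1 symbol each. A gene was represented by its brightest probe set, and 6360 of the 7975 genes were bright enough to be tested. The other 8 arrays came from both sexes at 3-4 weeks and at 24-28 weeks, with 2 arrays in each group. The groups are defined by sex and age alone, and no treatment or genetic change is named for any of them. No strain is named in the sources used here. The labels do not tell whether the 2 arrays of a group hold RNA of different animals, so each p-value reflects array-to-array spread alone, and that spread may be technical.

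The spleen filters blood and holds B cells, T cells, plasma cells and the macrophages of the red pulp that clear old erythrocytes. In the mouse it is also a site of blood formation, where erythroid precursors and granulocytes divide and mature. Interferon-stimulated genes are switched on when cells sense interferon, and encode antiviral proteins and GTPases. The tail of the pancreas lies next to the spleen, and its acinar cells make digestive enzymes and secreted lectins of the Reg family.

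Values are MAS5 signals, a linear brightness, rescaled so that every array has the same trimmed mean. Differences are male minus female on a log2 scale after adding 32 to the signal, which understates the change of dim genes. A gene is called when its p-value from limma, adjusted over all 8926 probe sets tested, was under 0.05. The sex labels held: Xist gave 386 and 333 in females against 88.2 and 44.3 in males, and the Y-linked Eif2s3y gave 57.6 and 49.8 in females against 658 and 857 in males. The spleen markers were bright on all 4 arrays. The B cell receptor gene Cd79a gave 7414 and 7965 in females and 6207 and 7703 in males. Spic, the transcription factor of red pulp macrophages, gave 1954, 1794, 2448 and 1698 in that order, and the T cell gene Cd3e gave 845, 734, 594 and 962.

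The 2 arrays of each sex correlated at r = 0.974 across probe sets, and arrays of opposite sex at 0.961 to 0.963. These are correlations across genes, which are not independent replicates. Male array b stood apart in its brightest signals. Its highest deposited signal was 28490, against 44639 or more on the other 11 arrays. For beta-actin, an array control, the 3' to 5' signal ratio was 0.574 and 0.738 in females and 0.376 and 0.333 in males. Its 3' signals were 10399 and 16657 in females and 6816 and 4045 in males, against 17045 or more at the other ages. The 5' signals were 18119 and 22580 in females and 18107 and 12130 in males. Ratios this low were not read as a measure of RNA quality. The 3' to 5' ratio for Gapdh was 1.87 and 1.91 in females and 1.38 and 1.06 in males. Both ratios therefore moved with sex, and their part in the results was not tested.

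Of the 6360 autosomal genes, 543 were called, which is 8.54%. Of these 197 (3.10%) were higher and 346 (5.44%) were lower in males. The sexes did not overlap in any of the 543, and they did not overlap in 3474 of all genes (54.6%), called or not. Few differences were large: 108 of the called genes exceeded 1 on the log2 scale, 67 of them higher and 41 lower. The median over all 6360 genes was 0.021. The counts moved with single arrays. Without female array a, 111 genes were higher and 131 lower, and without female array b 113 were higher and 157 lower. Without male array a the counts were 164 and 303, and without male array b 139 and 285.

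**Figure D1:**
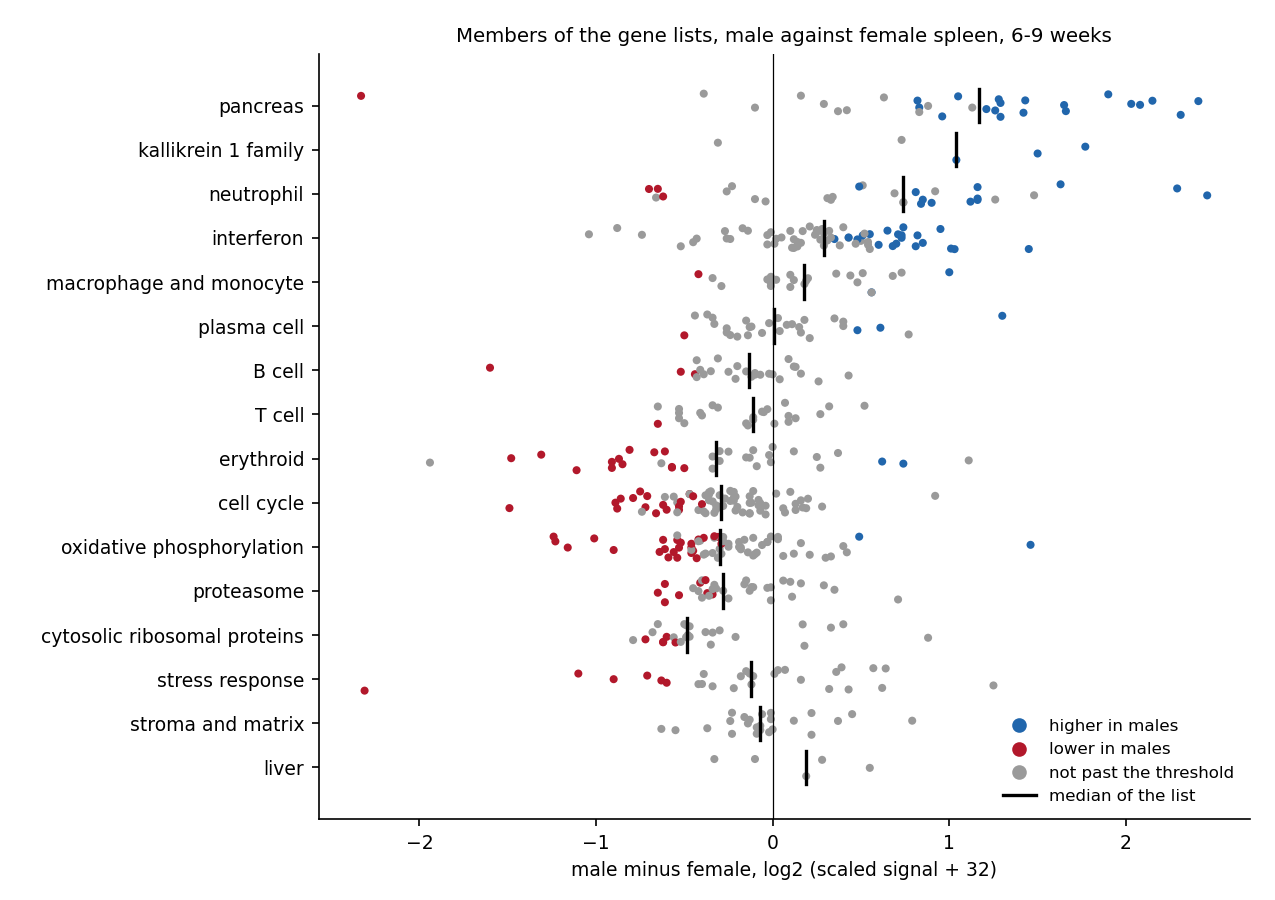
Male minus female difference (log2 of scaled signal plus 32) for each tested member of 16 gene lists at 6-9 weeks. Each dot is a gene, coloured by whether it passed the threshold and in which direction, and the black bar is the median of the list. Pancreatic and neutrophil genes reach furthest to the right, while most erythroid, cell cycle and oxidative phosphorylation members lie to the left of 0.

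The direction of a difference depended on brightness. When the 6360 genes were split into 10 sets of 636 by mean signal, the median difference was 0.14 in the dimmest set and −0.19 in the brightest, whose genes had a mean signal of 2118 or more. The brightest set held 50 genes higher and 137 lower in males. Its median was −0.11 under quantile normalization and −0.15 without male array b. This slope lies beside every list of bright genes described here, and its part in their counts was not tested.

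**Figure D2:**
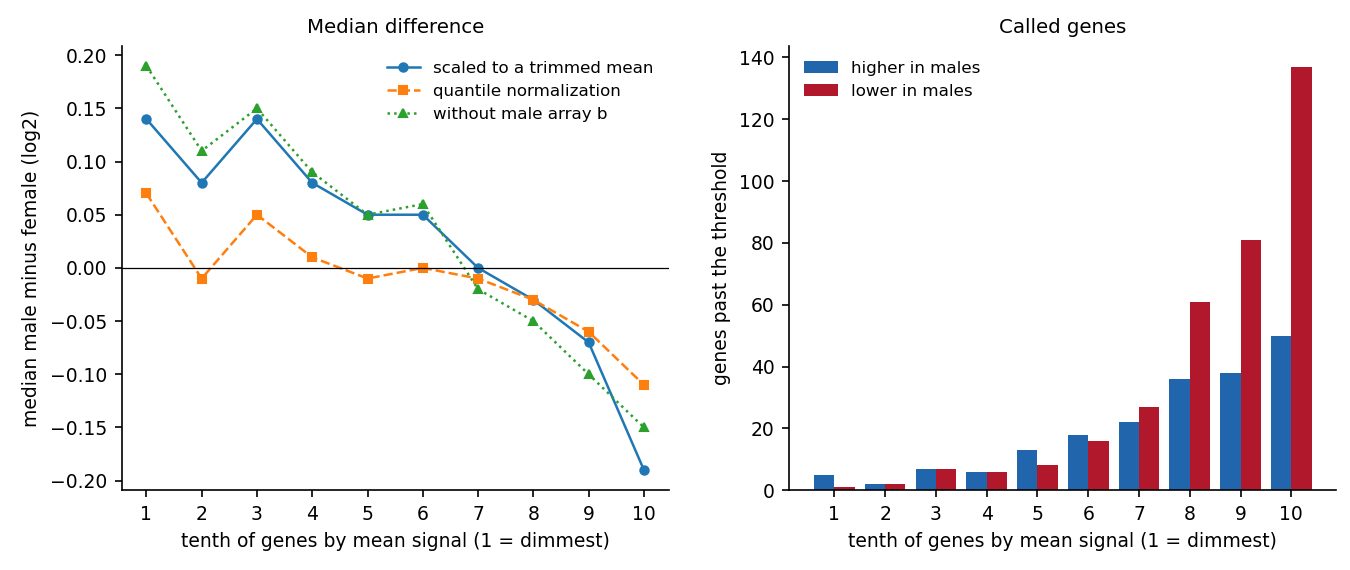
Left, median male minus female difference (log2) in 10 sets of 636 genes ordered by mean signal, as scaled, after quantile normalization and without male array b. Right, number of called genes per set, higher and lower in males. The median falls from 0.14 to −0.19 from the dimmest to the brightest set, and the brightest set holds 137 of the 346 calls lower in males.

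Pancreatic genes made up a large part of the strongest increases in male spleens, 6 of the 12 largest. Of 30 tested pancreas genes, 19 were higher and 1 was lower in males, against 3.10% and 5.44% of all genes, and their median difference was 1.17. The summed signal of the 30 genes was 68429 and 64775 in females and 153675 and 111946 in males. The brightest enzyme genes were far above the filter in females too, so pancreatic transcripts were measured in both sexes. The part of pancreatic tissue in the samples was not tested. In whole tissue, more cells of a type and more RNA per cell cannot be told apart, and this holds for every cell type named here.

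Secreted lectins of the Reg family, which acinar cells release into pancreatic juice, showed the widest gaps. Reg3a gave 312 and 276 in females and 1827 and 1576 in males, a difference of 2.41 (SE 0.12, adjusted p = 5.86e-07). Reg3b gave 1778 and 1697 in females and 9456 and 8091 in males (2.31, SE 0.11, adjusted p = 5.86e-07). Reg2 gave 1769 and 1946 in females and 9867 and 7087 in males (2.15, SE 0.13, adjusted p = 3.9e-06). In each of the 3 genes the lower male array was far above the higher female array. Reg1 was also higher, by 1.29, while the dim Reg3g gave 12.9 and 28.9 in females and 166 and 34.5 in males and did not pass (adjusted p = 0.151). A further probe set for Reg3a differed by 2.34 and one for Reg3b by 1.79, whereas dim further probe sets for Reg1 (0.17) and Reg2 (0.26) were not called.

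The promoters of Reg2 and Reg3a are shown because both genes rose together and both hold the letters of the sites that the acinar factor PTF1 is known to bind, an E box and a site for its RBPJL subunit. Sequences are from RefSeq, build GRCm38.p6, from 250 bases before to 50 bases after the gene start, and capitals mark CACCTG and TTCCCA on either strand. The Reg2 window is chr6:78404905-78405204 on the plus strand and the Reg3a window chr6:78380459-78380758 on the plus strand.
Reg2: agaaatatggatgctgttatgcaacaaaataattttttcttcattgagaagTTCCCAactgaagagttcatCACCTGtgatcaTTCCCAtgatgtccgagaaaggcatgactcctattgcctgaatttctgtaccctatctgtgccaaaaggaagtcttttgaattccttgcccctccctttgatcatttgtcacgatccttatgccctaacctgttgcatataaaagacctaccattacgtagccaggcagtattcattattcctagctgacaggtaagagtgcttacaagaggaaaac
Reg3a: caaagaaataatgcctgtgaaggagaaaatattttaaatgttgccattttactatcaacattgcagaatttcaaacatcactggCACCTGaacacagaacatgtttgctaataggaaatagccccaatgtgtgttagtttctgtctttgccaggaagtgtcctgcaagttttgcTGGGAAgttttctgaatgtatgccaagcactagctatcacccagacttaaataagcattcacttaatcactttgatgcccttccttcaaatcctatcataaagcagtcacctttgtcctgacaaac

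Of the 20 called pancreas genes 17 had a promoter window in the table. CACCTG stood in 10 of them, TTCCCA in 12 and both in 7. Reg3b held CACCTG without TTCCCA and Reg1 held TTCCCA without CACCTG, and their windows are not shown. Over all 25748 genes with a window the shares were 22.9%, 28.1% and 6.20%. A match describes the letters of the window only, and the 2 motifs can overlap by at most their end letters. Among the 7 pancreas genes with a window that were not called, 3 held CACCTG, 3 held TTCCCA and 1 held both. The list was drawn up from known pancreas genes, so a high share in it may be a property of the list.

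Digestive enzymes and their cofactors followed the lectins: 11 of 13 were higher and 1 was lower in males (median 1.28). Rnase1, the pancreatic ribonuclease, gave 396 and 356 in females and 2252 and 1268 in males (2.08, SE 0.21, adjusted p = 8.43e-05). Clps, the cofactor of pancreatic lipase, gave 3312 and 2815 in females and 11388 and 8144 in males (1.65, SE 0.14, adjusted p = 3.57e-05). Cel, a bile salt-dependent lipase, gave 4208 and 4084 against 12956 and 9529 (1.42, SE 0.13, adjusted p = 6.77e-05). Male array a was brighter than male array b in all of these, and both were above both females. The chymotrypsin-like protease gene Ctrl (1.66) and the lipase-related gene Pnliprp1 (1.43) were higher as well. The trypsinogen gene Prss2 gave 8946 and 8276 in females and 19543 and 11926 in males, and the elastase gene Cela1 gave 7291 and 7347 against 14693 and 11499. The chymotrypsinogen gene Ctrb1 gave 12367 and 12311 in females and 24898 and 14570 in males and did not pass (0.63, adjusted p = 0.0644).

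One elastase gene went the other way. Cela2a gave 12020 and 10825 in females and 3443 and 1450 in males, a difference of −2.33 (SE 0.63, adjusted p = 0.0429). It was the largest decrease among the called genes. The call was lost without female array a, without female array b and without male array b, as well as with an offset of 1, without the filter and without the intensity trend.

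Genes of the zymogen granule, in which acinar cells store enzymes, were higher in 4 of 5 cases. Sycn, which encodes the granule protein syncollin, gave 554 and 637 in females and 2241 and 2354 in males (1.90, SE 0.12, adjusted p = 4.71e-06). Zg16 (1.26), Dmbt1 (1.29) and Cuzd1 (1.05) were higher too, and Spink1, a trypsin inhibitor gene, was dim and did not pass (0.83, adjusted p = 0.205). Genes of the endocrine islets were dim: 12 of the 17 on the array could not be tested, among them Gcg, Sst and Iapp, and limma called 0 of the other 5 (median 0.37, 1 with an unadjusted p under 0.05). Ins2 gave 39.4 and 61.9 in females and 121 and 117 in males (0.88, adjusted p = 0.0536). The acinar transcription factor genes Rbpjl (−0.39) and Nr5a2 (−0.10) were dim and limma called neither, with 0 unadjusted p under 0.05.

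**Figure D3:**
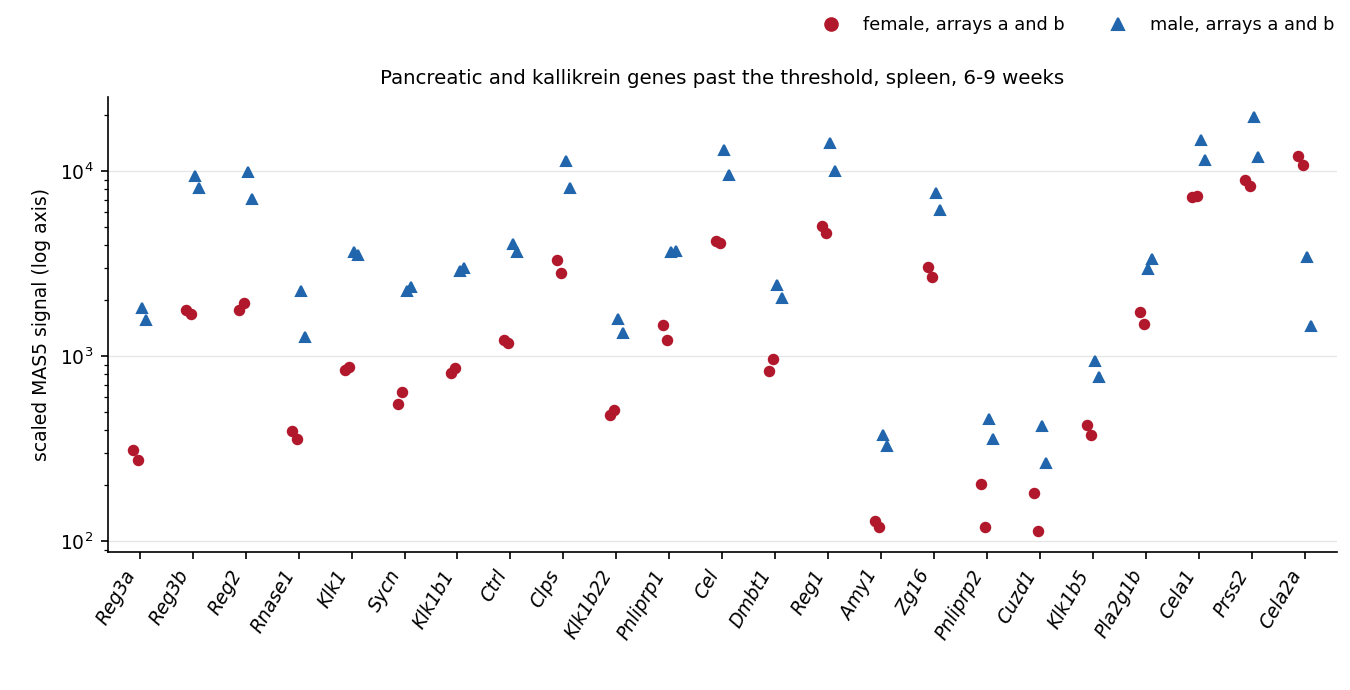
Scaled MAS5 signal (log axis) on each of the 4 arrays for the 23 called genes of the pancreas and kallikrein lists, ordered by their difference. Circles are the 2 female arrays and triangles the 2 male arrays. The male arrays lie above the female arrays in all genes but Cela2a, from Reg3a (2.41) to Prss2 (0.82).

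Tissue kallikrein and its relatives, serine proteases that release kinins or process growth factors, rose with the pancreatic genes. Klk1 gave 844 and 874 in females and 3663 and 3529 in males (2.03, SE 0.10, adjusted p = 5.86e-07). Of 5 tested genes of the Klk1b family 3 were higher and 0 lower. Klk1b1 gave 809 and 863 against 2888 and 2981 (1.77, SE 0.14), Klk1b22 482 and 510 against 1595 and 1332 (1.5, SE 0.13), and Klk1b5 422 and 373 against 941 and 771 (1.04, SE 0.15). The dim members Klk1b16 (0.73) and Klk1b8 (−0.31) were not called. The kallikrein genes are near-identical neighbours on chromosome 7 and all were read by probe sets of the _f_at kind, which can match several members of a family, so it is uncertain which member changed.

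Of 30 tested neutrophil genes 12 were higher in males and 3 lower, against 3.10% and 5.44% of all genes. The other 15 were not called, and the median of the list was 0.74. Of the 16 genes of mature cells and inflammation 8 were higher, and the calls lower in males were all granule genes. In the whole list, the summed signal was 30097 and 30249 in females against 48704 and 43104 in males. Slfn4, a Schlafen family gene of myeloid cells, had the largest increase of all autosomal genes: it gave 704 and 721 in females and 3886 and 4262 in males (2.46, SE 0.19, adjusted p = 1.47e-05). Il1b, which encodes the inflammatory cytokine interleukin 1 beta, gave 437 and 470 against 1374 and 1577 (1.63, SE 0.13, adjusted p = 1.55e-05). Mmp8, neutrophil collagenase, gave 27.1 and 31.7 against 265 and 273 (2.29, SE 0.30, adjusted p = 0.000705). Both female signals of Mmp8 were under the filter and under the offset of 32, so the size of its difference depended on the offset. With an offset of 1 the Mmp8 difference was 3.15. The 2 arrays of a sex lay close together in all 3 genes. The sexes did not overlap, which holds for all 543 called genes. The secreted glycoprotein gene Lrg1 (1.16), the G-CSF receptor gene Csf3r (1.12) and the calprotectin gene S100a8 (0.85) were higher too.

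The secondary granules, which form at the myelocyte stage, held genes of both directions. Camp, which encodes the antimicrobial cathelicidin, gave 4273 and 4392 in females and 2455 and 2876 in males (−0.70, SE 0.10, adjusted p = 0.00152). Ltf, lactoferrin, gave 485 and 478 against 299 and 290 (−0.65, SE 0.11, adjusted p = 0.00249). Ngp, the neutrophilic granule protein, gave 1376 and 1426 against 853 and 951 (−0.62, SE 0.12, adjusted p = 0.00628). The call was lost for Ltf with only the 4 arrays of this age (adjusted p = 0.0633 by limma) and for Ngp without female array b (adjusted p = 0.0547). All 3 genes were lower on both male arrays, whereas 4 of the same 10 genes were higher. Hp, haptoglobin, gave 1082 and 1117 in females and 2638 and 2374 in males (1.16, SE 0.13, adjusted p = 0.000207), and Ifitm6 (0.90) and Wfdc21 (0.84) were higher as well. The primary granule genes, made at the promyelocyte stage, gave 0 of 4 calls in limma and 1 unadjusted p under 0.05: Ctsg differed by −0.66, Mpo by −0.26, Prtn3 by −0.23 and Elane by −0.04.

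**Figure D4:**
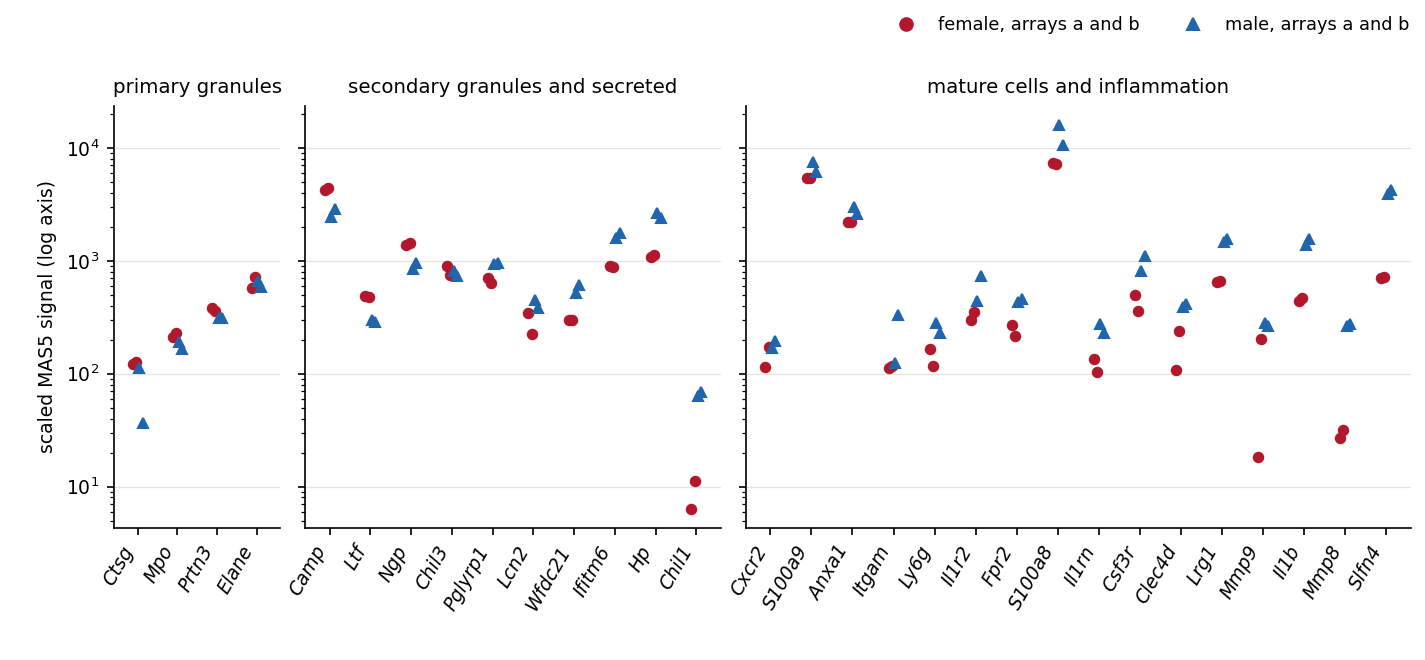
Scaled MAS5 signal (log axis) on each of the 4 arrays for the 30 tested neutrophil genes in 3 subgroups, each ordered from the lowest to the highest difference. Circles are female and triangles male arrays. Camp, Ltf and Ngp lie lower in males, primary granule genes lie close together, and all 16 genes of mature cells have a difference above 0, up to Slfn4 (2.46).

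Among myeloid genes outside the neutrophil list, Lilr4b, an inhibitory receptor gene, gave 481 and 533 in females and 1532 and 1699 in males (1.61, SE 0.11, adjusted p = 8.52e-06). The monocyte chemokine receptor gene Ccr2 gave 1048 and 914 against 1962 and 2031 (1.0, SE 0.14, adjusted p = 0.000833). In both genes the male arrays were alike and well above the females. Of 23 macrophage and monocyte genes 2 were higher, Ccr2 and Fcgr1 (0.56), and 1 was lower, Cd14 (−0.42). These calls are 8.7% and 4.35% of the list, against 3.10% and 5.44% of all genes. Limma called 0 of the 11 red pulp macrophage genes, 4 of which had an unadjusted p under 0.05 (median 0.18). Of 22 cytokine and chemokine genes the neutrophil chemokine genes Cxcl5 (1.46) and Cxcl1 (1.73) were higher and the lymphotoxin gene Ltb (−0.53) was lower. That is 9.09% higher and 4.55% lower, beside the same shares of all genes. Cxcl1 lost its call without female array b (1.37, adjusted p = 0.122 by limma) and without male array b (1.6, adjusted p = 0.0898), and its other, dimmer probe set differed by 0.53 (adjusted p = 0.59). The monocyte chemokine genes Ccl12 (1.29, adjusted p = 0.0532) and Ccl2 (1.0, adjusted p = 0.0546) missed the threshold.

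Of 67 tested interferon-stimulated genes 20 were higher in males and 0 lower, against 3.10% and 5.44% of all genes. The other 47 were not called. The median of the list was 0.29, and 14 members lay below 0. The GTPases that act on the vacuoles of intracellular pathogens had 6 of 9 genes higher (median 0.70). Gbp2 gave 1092 and 1069 in females and 2103 and 2394 in males (1.03, SE 0.10, adjusted p = 8.78e-05). Igtp gave 804 and 800 against 1346 and 1357 (0.73, SE 0.10, adjusted p = 0.00113). Iigp1 (0.95), Gbp7 (0.74), Irgm2 (0.70) and Gbp3 (0.60) were higher too. All 9 members lay above 0, including the dim Gbp2b (0.54, adjusted p = 0.333). The count of 20 fell to 13 without female array a and was 14 without female array b.

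The antiviral effectors had 10 of 25 genes higher (median 0.30). Rsad2, which encodes viperin, gave 1296 and 1192 in females and 2765 and 2315 in males (1.01, SE 0.11, adjusted p = 0.000155). Ifit2, a sensor of viral RNA, gave 237 and 219 against 675 and 679 (1.45, SE 0.18, adjusted p = 0.00051). Isg15, a ubiquitin-like modifier, gave 3830 and 3787 against 6764 and 5919 (0.73, SE 0.11, adjusted p = 0.00134). No male array overlapped a female array in these genes, as in all 543 called genes. Ifit3 (0.85), Lgals9 (0.71) and Ifi204 (0.65) were higher as well. Usp18, which removes Isg15 from proteins, gave 1017 and 1037 in females and 1275 and 1265 in males and did not pass (0.30, adjusted p = 0.104).

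The regulators and the antigen processing genes moved less. Of 16 sensors, receptors and transcription factors 2 were higher, Irf7 (0.82), which drives interferon alpha genes, and Irf1 (0.43). Of 10 antigen processing genes 2 were higher, the immunoproteasome genes Psmb9 (0.48) and Psmb10 (0.35). The interferons and the chemokines they induce had 0 of 7 called by limma and 2 with an unadjusted p under 0.05 (median 0.40). The lowest values of the list belonged to very bright genes on which male array b was the dimmest array. Ly6e gave 17750, 22619, 16142 and 5854 on female a, female b, male a and male b (−1.04, adjusted p = 0.079), and the class I gene H2-K1 gave 18434, 24724, 16536 and 8157 (−0.88, adjusted p = 0.0554).

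The promoters of Isg15, Gbp2 and Rsad2 are shown because these 3 genes rose and hold the core of the interferon-stimulated response element, GAAA and GAAA with any 2 bases between them, searched on both strands and written in capitals. The windows are chr4:156200769-156201068 on the minus strand for Isg15, chr3:142620413-142620712 on the plus strand for Gbp2 and chr12:26456403-26456702 on the minus strand for Rsad2, from RefSeq, build GRCm38.p6. In Isg15 overlapping matches form 1 run of capitals.
Isg15: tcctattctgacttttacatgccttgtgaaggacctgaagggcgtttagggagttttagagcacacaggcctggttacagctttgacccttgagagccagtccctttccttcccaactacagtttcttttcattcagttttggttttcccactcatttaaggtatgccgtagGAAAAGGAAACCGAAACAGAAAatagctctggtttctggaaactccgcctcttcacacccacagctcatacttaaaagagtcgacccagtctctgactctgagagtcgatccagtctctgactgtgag
Gbp2: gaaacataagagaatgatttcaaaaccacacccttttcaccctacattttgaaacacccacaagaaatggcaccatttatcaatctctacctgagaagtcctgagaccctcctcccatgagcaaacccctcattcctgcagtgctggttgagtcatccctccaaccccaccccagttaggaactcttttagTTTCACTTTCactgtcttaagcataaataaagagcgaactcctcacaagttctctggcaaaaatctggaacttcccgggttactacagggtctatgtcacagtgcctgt
Rsad2: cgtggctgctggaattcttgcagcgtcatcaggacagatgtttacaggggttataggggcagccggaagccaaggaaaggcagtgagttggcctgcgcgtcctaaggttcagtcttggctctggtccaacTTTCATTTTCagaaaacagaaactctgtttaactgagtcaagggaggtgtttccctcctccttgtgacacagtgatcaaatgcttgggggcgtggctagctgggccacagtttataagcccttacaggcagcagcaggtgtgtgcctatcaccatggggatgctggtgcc

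Of the 20 called interferon genes 18 had a window, and 11 of the 18 held this core. The 11 were Isg15, Rsad2, Lgals9, Gbp3, Ifit1, Ifit3, Gbp2, Gbp7, Irgm2, Trim21 and Igtp. Of 42 interferon genes with a window that were not called 18 held it, and over all 25748 genes the share was 4.02%. The list was drawn up from genes known to respond to interferon, so a high share in it is a property of the list, called or not.

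Of 34 tested erythroid genes 13 were lower in males and 2 higher, against 5.44% and 3.10% of all genes. The other 19 were not called, and the median of the list was −0.32. With only the 4 arrays of this age in the fit 8 were lower. In the whole list, the summed signal was 72038 and 76822 in females and 59300 and 44363 in males. Rhag, a membrane protein of the Rh complex, gave 1763 and 1924 in females and 841 and 827 in males (−1.11, SE 0.10, adjusted p = 4.35e-05). Tal1, a transcription factor required for blood formation, gave 388 and 349 against 136 and 90.3 (−1.48, SE 0.16, adjusted p = 0.000207). Klf1, which drives adult globin transcription, gave 1497 and 1378 against 746 and 418 (−1.31, SE 0.19, adjusted p = 0.00141). Both male arrays lay well under both females in these 3 genes. The erythropoietin receptor gene Epor gave 701 and 729 against 376 and 390 (−0.85, SE 0.13, adjusted p = 0.00178). Gfi1b (−0.91), the Rh antigen gene Rhd (−0.67), the water channel gene Aqp1 (−0.81) and the carbonic anhydrase genes Car1 (−0.91) and Car2 (−0.61) were lower too.

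Among the heme, iron and red cell enzyme genes 6 of 13 were lower, including Hemgn (−0.87), Uros (−0.57), Prdx2 (−0.57) and Alad (−0.50), and 1 was higher. A further, dimmer probe set for Prdx2 differed by −0.09 and was not called. The gene higher in males was Bpgm, whose product sets the oxygen affinity of haemoglobin, with 2066 and 1969 in females and 3470 and 2809 in males (0.62, SE 0.10, adjusted p = 0.00292). Of the 8 membrane and cytoskeleton genes 4 were lower and 1, Epb42, was higher (0.74). The band 3 gene Slc4a1 gave 820 and 722 against 865 and 811 (0.12, adjusted p = 0.601). Limma called 0 of the 5 globin genes, with 0 unadjusted p under 0.05. Hbb-b2 gave 12747 and 13590 in females and 15599 and 10968 in males (−0.01), and Hba-a1 gave 15141 and 19433 against 8466 and 2319 (−1.94, adjusted p = 0.289).

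Cell cycle genes were lower in males or not called. Of 73 tested genes 17 were lower and 0 were higher (median −0.29), against 5.44% and 3.10% of all genes. The 17 were 8 of 36 in DNA replication and 9 of 37 in mitosis. Cks2, a subunit of cyclin-dependent kinases, gave 3189 and 3187 in females and 1711 and 1733 in males (−0.88, SE 0.09, adjusted p = 8.61e-05). Birc5, survivin, gave 1185 and 1053 against 626 and 548 (−0.89, SE 0.10, adjusted p = 0.000207). Mcm5, a subunit of the replicative helicase, gave 4320 and 4515 against 2316 and 2517 (−0.86, SE 0.10, adjusted p = 0.000212). The arrays of a sex differed little beside the gap between the sexes. The tubulin regulator gene Stmn1 (−0.79), the checkpoint gene Mad2l1 (−0.72), the kinase gene Cdk1 (−0.60) and the clamp gene Pcna (−0.66) were lower too, whereas the thymidine kinase gene Tk1 (0.19) was not called. The summed signal was 82893 and 81705 in females and 62129 and 62073 in males, and the count of 17 was 9 without female array a and 10 without female array b.

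Genes of oxidative phosphorylation, the mitochondrial chain that makes ATP, were lower in males in part. Against 5.44% and 3.10% of all genes, 24 of 65 tested nuclear genes were lower and 2 were higher (median −0.30). These genes are bright, with a median mean signal of 2436, so the slope with brightness lies beside them. In complex I, which takes electrons from NADH, 12 of 26 genes were lower and 1 was higher. Ndufc1 gave 2066 and 2013 in females and 823 and 972 in males (−1.16, SE 0.12, adjusted p = 0.000106). Ndufv1 went the other way, with 2315 and 2116 against 3064 and 3179 (0.49, SE 0.12, adjusted p = 0.0302). In complex III and cytochrome c 3 of 9 genes were lower, among them Uqcrc2 with 6564 and 7055 against 3148 and 3585 (−1.01, SE 0.10, adjusted p = 8.31e-05).

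The other complexes held fewer calls. In complex IV 3 of 11 genes were lower and 1, the dim Cox6a2 (1.46), was higher, while Cox6b2 was lower by 1.23 in log2 (adjusted p = 0.000815). In ATP synthase 5 of 15 genes were lower. Atp5md gave 4612 and 4516 in females and 1693 and 2151 in males (−1.24, SE 0.13, adjusted p = 0.000125), and the ATPase inhibitor gene Atpif1 gave 8204 and 8877 against 4445 and 4655 (−0.90, SE 0.10, adjusted p = 0.00027). In complex II 1 of 4 genes was lower, Sdhd (−0.46). The count of 24 was 12 without female array a, 13 without female array b, 19 without male array a and 21 without male array b. Of 13 glycolysis genes 0 were called by limma (median −0.01, 2 unadjusted p under 0.05). Of 13 citric acid cycle genes 1 was lower, Pdhb (−0.50), a share of 7.69% against 5.44% of all genes.

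Proteasome and ribosomal protein genes were also bright, and 24.2% and 19.2% of them were lower in males, against 5.44% of all genes. In the brightest set of 636 genes 137 were lower. Of 33 proteasome genes 8 were lower and 0 higher (median −0.28), among them Psma3 (−0.61). That count was 3 without either female array and 4 without male array b. Of 26 ribosomal protein genes 5 were lower and 0 higher (median −0.48). Their summed signal was 313965 and 338977 in females, 288332 on male array a and 183782 on male array b. Without male array a 19 were lower (median −0.78), without male array b 4 were lower (median −0.14), and under quantile normalization 2 were lower (median −0.20), so the value rested on male array b and on the scaling.

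Chaperone genes of the heat shock response, which assist protein folding, were lower in 5 of 10 cases and higher in 0 (median −0.51). Over all genes the shares were 5.44% and 3.10%. Hspe1, the mitochondrial co-chaperonin, gave 7359 and 7176 in females and 4061 and 3705 in males (−0.90, SE 0.09, adjusted p = 8.26e-05). Hsph1, a cytosolic exchange factor for HSP70, gave 2016 and 2310 against 931 and 1058 (−1.10, SE 0.14, adjusted p = 0.000526). Both were lower on both male arrays without overlap, as was every gene called lower in males. Hsp90aa1 (−0.63), Dnajb1 (−0.71) and Hspa8 (−0.60) were lower too, and Hspd1, which shares its promoter region with Hspe1, gave 2683 and 2486 against 2811 and 2462 (0.03, adjusted p = 0.922). The count of 5 was 2 without female array b. The steroid receptor co-chaperone gene Fkbp4 was lower as well, by 0.70 in log2 (adjusted p = 0.000748).

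The Hspe1 promoter is shown because it holds the inverted repeats that heat shock factors are known to bind, GAA, TTC and GAA with any 2 bases between neighbours, searched on both strands and written in capitals. The window is chr1:55087898-55088197 on the plus strand, from RefSeq, build GRCm38.p6.
Hspe1: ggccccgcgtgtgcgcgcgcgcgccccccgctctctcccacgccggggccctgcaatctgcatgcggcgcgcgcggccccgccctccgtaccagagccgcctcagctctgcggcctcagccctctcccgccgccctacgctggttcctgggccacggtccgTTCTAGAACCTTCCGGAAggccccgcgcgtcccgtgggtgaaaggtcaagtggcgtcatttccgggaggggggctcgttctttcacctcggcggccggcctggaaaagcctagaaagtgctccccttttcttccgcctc

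Of the called heat shock chaperone genes 3 had a window and 2 of them, Hspe1 and Hsph1, held the motif. Among the 5 with a window that were not called 1 held it, and over all 25748 genes the share was 0.680%. With so few windows the share is a description only. Among the 18 immediate early genes, which sense handling and activation, 0 were higher and 1 was lower (5.56%, against 5.44% of all genes). That gene was Klf2, a transcription factor of quiescent lymphocytes and endothelium, with 545 and 417 in females and 129 and 33.8 in males (−2.31, SE 0.37, adjusted p = 0.00232). Jun gave 54.8 and 21.1 in females and 187 and 87.4 in males and did not pass (1.25, adjusted p = 0.0972).

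Single genes of antibody secretion were higher in males, while the plasma cell list as a whole had a median of 0.0. Igha, the constant region of immunoglobulin A, gave 5152 and 5101 in females and 13261 and 12184 in males (1.30, SE 0.09, adjusted p = 8.52e-06). Jchain, which joins IgA and IgM units, gave 4783 and 4670 against 6740 and 6430 (0.48, SE 0.11, adjusted p = 0.0231). Xbp1, the transcription factor of plasma cell secretion, gave 1135 and 982 against 1644 and 1606 (0.61, SE 0.11, adjusted p = 0.00568). None of the 3 overlapped between the sexes, as holds for every called gene. Of 30 plasma cell genes these 3 were higher and Atf4 (−0.50) was lower, and Atf4 was the 1 gene called among 19 of the endoplasmic reticulum (median −0.12, 6 unadjusted p under 0.05). The surface gene Sdc1 (0.40) and the regulator genes Irf4 (0.18) and Prdm1 (−0.26) were not called.

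Immunoglobulin variable genes, grouped by symbol after their values were seen, were higher in males in 15 of 20 cases and lower in 1 (median 1.18). Over all genes 3.10% were higher and 5.44% lower. Igkv14-111 gave 1999 and 1795 in females and 5190 and 5514 in males (1.48, SE 0.11, adjusted p = 1.47e-05), and the one gene lower in males was the very bright Igkv6-23, with 24543 and 32148 against 19138 and 11288 (−0.93). Of the 20 genes 13 were read by probe sets that can match related genes, so the single segment is uncertain. Dimmer probe sets for Igkv14-111 differed by 1.08 (called) and −0.48 (not called), and a dimmer probe set for Igkv8-30 by −0.34 (not called).

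In the lymphocyte lists themselves 11.5% of B cell and 4.0% of T cell genes were lower in males, against 5.44% of all genes. Of 26 B cell genes 0 were higher and 3 were lower, Cd24a (−0.52), Cd37 (−0.44) and Pou2f2 (−1.60). The Pou2f2 call was lost in limma without female array a (adjusted p = 0.143), female array b (0.0734) or male array b (0.148), and with only the 4 arrays of this age (0.0556). Of 25 T cell genes 1 was lower, the T cell receptor subunit gene Cd3d, with 1120 and 977 in females and 641 and 670 in males (−0.65, SE 0.11, adjusted p = 0.00323). Of 10 MHC class II genes 1 was higher, H2-DMb2 (0.68), and of 12 dendritic cell genes 2 were called higher, Flt3 (0.61) and Cd86 (0.38). A further Flt3 probe set of similar brightness, 676 against 900 in mean signal, had a fitted difference close to 0 (adjusted p = 0.994 by limma), so the Flt3 call rests on 1 probe set. The lists of NK cells (13 genes), platelets (8), stroma and matrix (24), endothelium (11) and skeletal muscle (11) had 0 calls in limma, with 1, 2, 4, 0 and 0 unadjusted p under 0.05 in that order. Of 13 liver genes 8 were too dim to be tested, and limma called 0 of the other 5, 1 of which had an unadjusted p under 0.05. Of 10 adipose genes 1 was higher, Adipoq, with 192 and 223 in females and 380 and 500 in males (0.97, SE 0.19, adjusted p = 0.00777). Of 14 steroid hormone response genes 1 was higher, Hsd11b1 (0.40), which regenerates active glucocorticoid, and Fkbp4 and the metallothionein gene Mt2 (−0.44) were lower. With 3.10% of all genes higher and 5.44% lower, 1 or 2 calls in lists as small as these are a description only.

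Several of the largest single decreases lay outside the lists. Pea15a, a phosphoprotein of the ERK pathway, gave 550 and 637 in females and 87.3 and 158 in males (−2.05, SE 0.30, adjusted p = 0.00141). Sphk1, which makes sphingosine 1-phosphate, gave 717 and 657 against 143 and 237 (−1.73, SE 0.17, adjusted p = 8.43e-05). The zinc finger gene Zfp94 gave 2389 and 2200 against 610 and 521 (−1.96, SE 0.32, adjusted p = 0.00281). The sexes did not overlap in these genes, which was part of the rule that picked them. The same holds for all 543 called genes and for 54.6% of all genes. The ribokinase gene Rbks (−1.63), the acetyltransferase gene Kat2a (−1.51), Taf1d (−1.49), the polymerase subunit gene Pold2 (−1.49) and Abi1 (−1.48) completed the 12 largest decreases with Cela2a, Klf2, Pou2f2 and Tal1. Single arrays decided some of these calls: by limma's adjusted p, Kat2a was lost without either female array, Pold2 without either female array or male array b, and Taf1d without female array a or male array a. A further Taf1d probe set of similar brightness differed by −0.31 (adjusted p = 0.125). Among the 12 largest increases, Igkv2-112 (2.20) and the laminin gene Lamc1 (1.82) had not been named above. The Lamc1 call was lost without female array a (adjusted p = 0.0513), female array b (0.15) or male array b (0.121), and without the intensity trend (0.0571).

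The sex difference at 6-9 weeks was then tested against that at the other ages. Each such test includes the same 4 arrays of 6-9 weeks, so an overlap with the 543 called genes is in part built in. Against 3-4 weeks 84 autosomal genes differed (1.32%), 36 with a more positive value at 6-9 weeks and 48 with a more negative one, and 73 of the 84 were among the 543 called genes. Against 24-28 weeks 1121 genes differed (17.6%), 536 in the positive and 585 in the negative direction, and 395 of them were among the 543. Of the 543 genes 17.5% had the opposite sign at 3-4 weeks, against 39.8% of all 6360 genes, and 69.2% had it at 24-28 weeks, against 56.4%. The count of 84 was 45 without female array a, 34 without female array b and 171 without male array a. The beta-actin 3' to 5' ratio of the male 24-28 week arrays was 2.62 and 2.39, the 2 highest values of the 12 arrays. All arrays of 6-9 weeks had ratios from 0.333 to 0.738, under every array of the other ages, which had 1.03 or more. The part of this ratio in either count was not tested.

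Among the pancreatic genes 10 of 30 differed from 3-4 weeks and 22 of 30 from 24-28 weeks. From the youngest to the oldest age, the list's median sex difference took the values 0.50, 1.17 and −0.45. Reg2 differed between the sexes by 0.34, 2.15 and −0.39 at the 3 ages, a change of 1.81 from the youngest age (SE 0.18, adjusted p = 0.000873) and of 2.55 from the oldest (SE 0.18, adjusted p = 3.24e-06). Klk1 differed by 0.54, 2.03 and −0.89, and Rnase1 by 0.12, 2.08 and −2.24. Reg3a stayed positive at all 3 ages, with 0.81, 2.41 and 1.34. The immunoglobulin variable genes had medians of −0.01, 1.18 and −1.45, and Igha differed by 0.29, 1.30 and −0.12.

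The neutrophil list had medians of 0.93, 0.74 and 2.87 at the 3 ages. Of its 30 genes 10 differed from 3-4 weeks and 21 from 24-28 weeks, against 1.32% and 17.6% of all genes. The granule genes that were low in males at 6-9 weeks were high in males at the other ages: Camp differed by 1.23 and 2.42, Ltf by 1.30 and 2.99 and Ngp by 0.98 and 3.88 at 3-4 and 24-28 weeks. All 4 primary granule genes also had a lower sex difference at 6-9 weeks than at 3-4 weeks, from −0.96 for Elane (adjusted p = 0.0197) to −1.91 for Ctsg (adjusted p = 0.0419). Il1b and Mmp8 ran the other way from 3-4 weeks, with sex differences of 0.43 and −0.19 at that age, changes of 1.2 (adjusted p = 0.0062) and 2.49 (adjusted p = 0.0154). Slfn4 differed by 2.62, 2.46 and 3.13, and neither change passed (adjusted p = 0.844 and 0.107).

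The interferon list had medians of 0.49, 0.29 and −0.08, and 20 of its 67 genes differed from 24-28 weeks, against 17.6% of all genes. Against 3-4 weeks 2 of its 67 genes differed, both with a smaller sex difference at 6-9 weeks: Usp18 (1.72 at 3-4 weeks, 0.30 at 6-9 weeks, adjusted p = 0.000873) and Ifit1 (2.01 and 0.81, adjusted p = 0.0202). Erythroid genes had medians of −0.14, −0.32 and 0.56, cell cycle genes −0.22, −0.29 and 0.49, and oxidative phosphorylation genes −0.13, −0.30 and 0.19. In these 3 lists 21 of 34, 41 of 73 and 28 of 65 genes differed from 24-28 weeks, and 3, 2 and 3 genes differed from 3-4 weeks. The erythroid ones were Rhag, Hemgn and Prdx2, the cell cycle ones Cks2 and Birc5, and the others Atp5md, Atpif1 and Cox7a2l, all with a more negative value at 6-9 weeks.

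**Figure D5:**
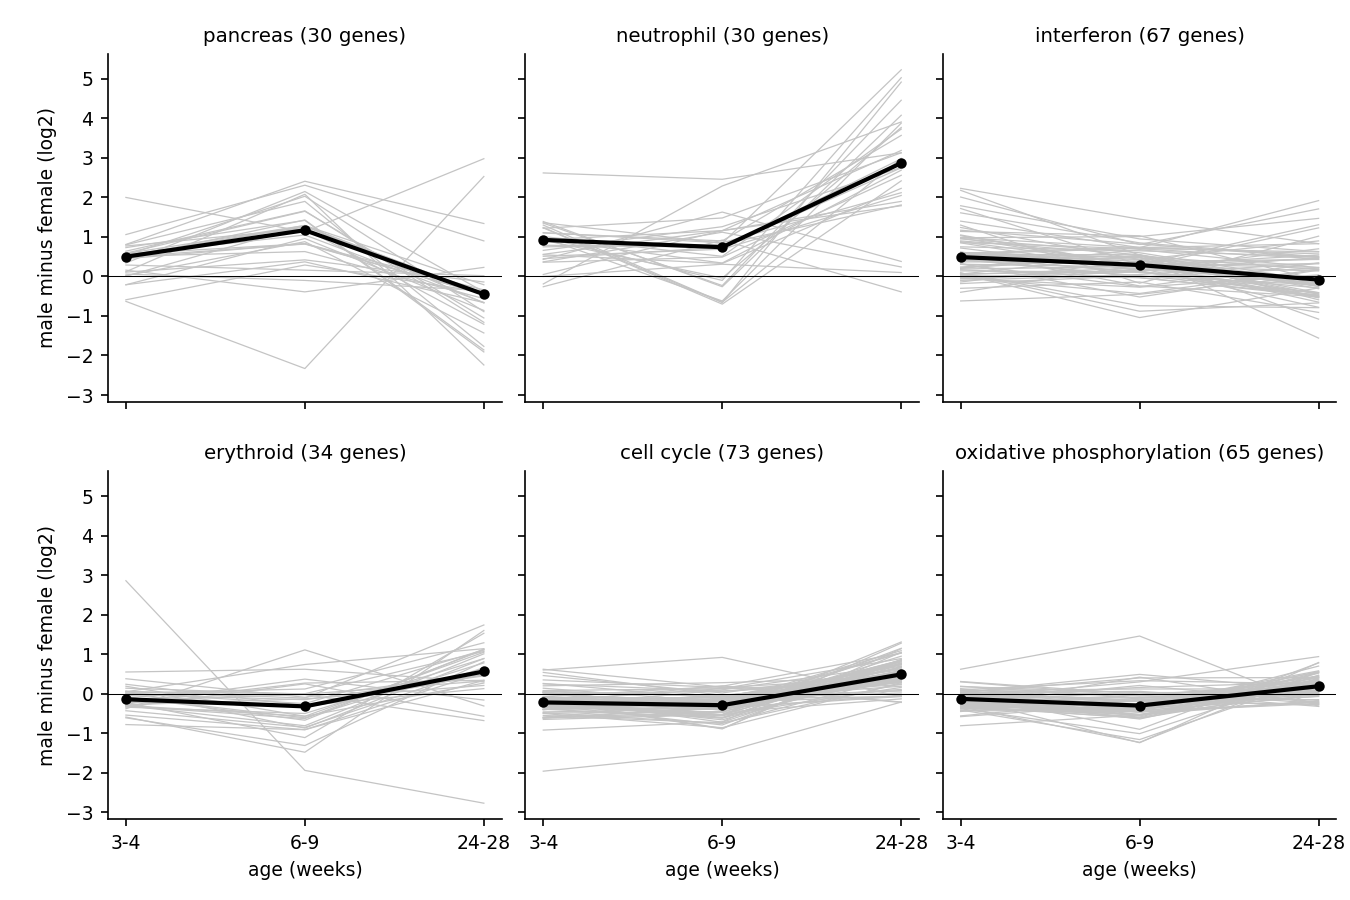
Male minus female difference (log2) at 3-4, 6-9 and 24-28 weeks for the members of 6 gene lists. Each grey line is a gene and the black line joins the medians. The pancreas median is highest at 6-9 weeks (1.17), the neutrophil median at 24-28 weeks (2.87), and the erythroid, cell cycle and oxidative phosphorylation medians pass from below 0 to above 0 by 24-28 weeks.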

How the data were processed

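Biotin-labelled total RNA of mouse spleen was read on 12 single-channel arrays. The authors deposited a linear intensity for every probe set, obtained with MAS5 per the submitters' processing notes; its version and scaling target are not given here. Trimmed means of the deposited columns lay between 800.5 and 800.7, so a scaling step preceded deposit.

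Of 12488 probe sets 66 were controls and were left out. The platform annotation gave 1 symbol to 10833 of the rest, several to 396 and no symbol to 1193; 10817 were tied to RefSeq genes (GRCm38.p6) by Entrez identifier. Suffixes such as _f_at mark probe sets that may read related transcripts. Of 110 called genes with several tested probe sets, 35 had one of opposite sign, and that one was itself called for Ctse and Fignl1.

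Arrays were scaled to a trimmed mean of 500 (2% off each end), 32 was added and log2 taken. A probe set was tested if its scaled signal reached 100 on at least 2 of 12 arrays. Limma 3.58.1 in R 4.3.3 (lmFit, then eBayes with an intensity trend) fitted the 6 sex and age groups together, leaving 6 residual and 5.43 prior degrees of freedom. Tests were two-sided with Benjamini-Hochberg adjustment over 8926 probe sets. The method was tested on simulated data, and the number of arrays limits precision.

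Members, gene lists and tests were chosen with earlier results of these data known, and the immunoglobulin variable genes were grouped by symbol after their values were seen. Named were the 12 largest increases and decreases among called genes without overlap of the sexes, up to 6 genes of smallest p per list or subgroup, the 8 smallest p per test against another age, genes whose promoters are shown, and Xist and Eif2s3y; other members appear with values only. Alternatives were quantile normalization, an offset of 1, other filters, no trend, the 4 arrays alone, arrays left out, another probe set per gene and the replicate letter as a block.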

Additional observations from a re-analysis of the deposited data

Results flagged for a closer look

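The sex difference differed between ages, by limma's test of the difference itself, in 84 autosomal genes against 3-4 weeks and in 1121 against 24-28 weeks. Against 3-4 weeks the 8 smallest p-values among the called genes belonged to the granule genes Ltf (−1.96), Camp (−1.93) and Ngp (−1.60), the pancreatic and kallikrein genes Klk1 (1.49), Reg2 (1.81) and Reg3a (1.59), and the antibody genes Igkv14-111 (1.43) and Igkv4-68 (1.13). A positive value means a higher male minus female difference at 6-9 weeks.

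Against 24-28 weeks they belonged to the granule genes Ngp (−4.50), Wfdc21 (−4.39) and Ltf (−3.64), the antibody genes Igkv8-30 (4.22), Igkv14-111 (3.35), Igkv8-19 (3.19) and Igkv4-68 (2.74), and the lipase-related gene Pnliprp1 (3.30). In Ngp and Ltf the sex difference was −0.62 and −0.65 at 6-9 weeks and 3.88 and 2.99 at 24-28 weeks, so the direction turned. Groups of 2 arrays are too small to test single arrays as outliers.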

How the results depend on the processing

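The 197 genes higher and 346 lower in males became 231 and 374 under quantile normalization, and 514 of the 543 were called there too. Fitting only the 4 arrays of this age gave 120 higher and 150 lower, with 8 erythroid, 8 cell cycle, 12 oxidative phosphorylation, 3 heat shock and 1 proteasome genes lower, and 1 immunoglobulin constant or J chain gene higher. Without the intensity trend 165 genes were lower, with 11 cell cycle, 12 oxidative phosphorylation and 3 proteasome genes lower and 1 immunoglobulin constant or J chain gene higher, and 24 genes differed from 3-4 weeks. Proteasome genes lower were 5 without the filter and 4 without the male 24-28 week arrays. Arrays with the same letter did not deviate together (correlations from −0.0657 to 0.059). Such a correlation shows only a deviation shared across the array, so it cannot exclude that the letters pair arrays. The replicate block gave 182 higher and 327 lower and 5 proteasome genes lower.

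Leaving out 1 array of this age at a time gave 111 to 164 genes higher and 131 to 303 lower, and 34 to 171 differed from 3-4 weeks. The counts were 13 to 20 for interferon genes higher, 9 to 14 for cell cycle genes lower, 12 to 21 for oxidative phosphorylation, 2 to 5 for heat shock and 3 to 6 for proteasome genes lower, and 1 to 2 for immunoglobulin constant and J chain genes higher. A group left with 1 array is assumed to vary like the others. The pancreas, neutrophil and 24-28 week counts stayed within 1.5 times their value in all of these settings. Of 429 values of named genes under the alternatives, 399 kept their direction and their side of the threshold, 30 kept the direction but missed it, and 0 reversed. The named genes counted here were all called, with both male arrays beyond both female arrays. Leaving out an array or changing the offset, filter or trend therefore could not reverse their direction. The cause of the shifts in counts and calls was not tested. No detection limit was measured.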
